A study of Arabidopsis thaliana with 12 samples.

Results

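The B-box genes followed here are BBX18 to BBX25, BBX31 and BBX32, a set of 10 Arabidopsis thaliana light-signalling genes chosen by locus. Of these, 9 had a probe set that the deposited files pair with exactly 1 locus, each with 1 such probe set, out of 22746 probe sets besides array controls. The 9 are BBX18 (AT2G21320), BBX19 (AT4G38960), BBX20 (AT4G39070, also called BZS1), BBX21 (AT1G75540), BBX22 (AT1G78600, also called LZF1), BBX23 (AT4G10240), BBX24 (AT1G06040, also called STO), BBX25 (AT2G31380, also called STH) and BBX31 (AT3G21890). BBX32 (AT3G21150) was without a probe set and was not analysed here.

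B-box proteins are zinc-finger regulators of transcription, and most of those described here carry their B-boxes as a tandem pair without the CCT domain of CONSTANS, whereas BBX31 and BBX32 carry a lone B-box. Many of them act with or against HY5, the bZIP factor that drives seedling development in light, and are targeted for degradation in darkness by the ubiquitin ligase COP1. BBX20, BBX21, BBX22 and BBX23 are known as promoters of light-driven development, while BBX18, BBX19, BBX24, BBX25 and BBX32 are known as repressors of it. BBX31, also called miP1a, is a microProtein that can tether CONSTANS to the TOPLESS co-repressor.

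Whole seedlings of 2 lines were profiled: CCA1-34, an arrhythmic line that overexpresses the clock transcription factor CCA1, and its wild type Columbia (Col). All seedlings had 4 short days (8 h of light, then 16 h of darkness) on sucrose medium, about 100 to a dish, and then 160-min light pulses that alternated with 320 min of darkness. The groups were CCA1-34 late, CCA1-34 early, Col late and Col early, in which late is 1240 min and early 280 min after dawn, both 120 min into darkness. A group comprised 3 arrays, with replicate 1 sampled at an age of 5 days, replicate 2 at 6 days and replicate 3 at 7 days, and the design text states that in darkness Col grew at the early time only and CCA1-34 at both times. CCA1-34 is 1 line, and the promoter that drives CCA1 in it is not given in the sources used here. Since the labels do not say whether arrays came from separate sowings, p-values reflect only how far these samples spread. All values are log2 values made by the authors with RMA, a level is such a value, and a difference is of such values. In this bulk tissue, fewer cells that express a gene and less of its RNA per cell cannot be told apart.

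CCA1 itself stood at 8.89, 9.10 and 10.18 in CCA1-34 late and at 8.46, 9.11 and 9.16 in CCA1-34 early, against 3.71, 2.66 and 3.43 in Col late and 2.47, 4.21 and 6.37 in Col early, so the targeted gene went with the labels. Array medians were 4.01 to 4.12, and the mean of the 11 measured root markers was 4.89 to 5.94 and that of the 2 measured shoot photosynthesis markers 12.20 to 12.63, so that both organs were represented in each array. Col early replicate 3 and CCA1-34 early replicate 2 stood apart from the other arrays of their groups in light-regulated genes, which was known from earlier results of these data, so values are given below with and without both. The precision is limited by the number of arrays.

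**Figure D1:**
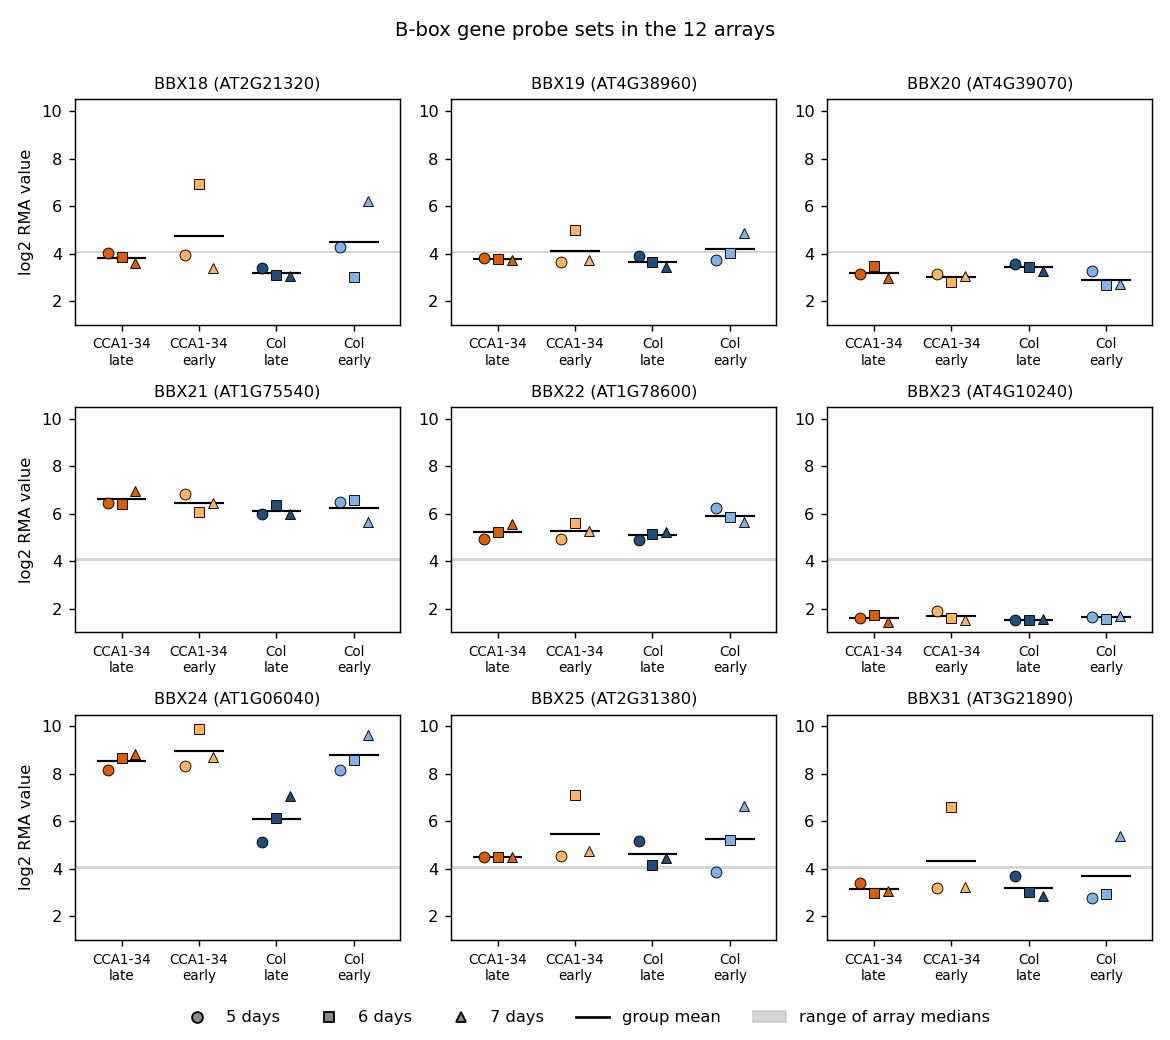
Log2 RMA values of the 9 measured B-box genes (y axis) in the 12 arrays, by group (x axis, 3 arrays each); point shapes give the seedling age in days, bars the group means, and the grey band the range of array medians. BBX24 in Col late lies at 5.13 to 7.06, below all other arrays, and BBX18, BBX19, BBX25 and BBX31 have their highest points in 1 array of each early group.

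BBX24, a repressor that interferes with HY5, had the widest range of the 9 genes, and its 3 lowest values were those of Col late. Its level was 8.17, 8.65 and 8.85 in CCA1-34 late, 8.35, 9.90 and 8.70 in CCA1-34 early, 5.13, 6.14 and 7.06 in Col late, and 8.17, 8.60 and 9.62 in Col early. The 3 Col late arrays lay below the other 9 without overlap, a comparison chosen after its values were seen. This held for 1 of the 9 B-box genes, BBX24, and in either direction for 1.01% of all probe sets. Group means were 8.56 ± 0.35 in CCA1-34 late, 8.98 ± 0.81 in CCA1-34 early, 6.11 ± 0.97 in Col late and 8.80 ± 0.75 in Col early (SD, n = 3 each). In order of level, CCA1-34 early, Col early and CCA1-34 late were neighbours that did not differ beyond their spread, and Col late came last.

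The late arrays of Col were 2.69 ± 0.54 (SE) lower in BBX24 than its early arrays on the log2 scale, or 6.45-fold, with differences of -3.04, -2.46 and -2.56 at ages 5, 6 and 7 days. This gave an unadjusted p of 0.000482 and an adjusted p of 0.388 over all probe sets with limma, so it did not pass. CCA1-34 exceeded Col at the late time by 2.45 ± 0.54, or 5.45-fold, with differences of 3.04, 2.51 and 1.79 on the 3 days, an unadjusted p of 0.00097 and an adjusted p of 0.424. At the early time the lines differed by 0.18 ± 0.54 (adjusted p = 1, limma), and within CCA1-34 the late minus early difference was -0.43 ± 0.54 (adjusted p = 1, limma), with -0.18, -1.25 and 0.15 at ages 5, 6 and 7 days. The difference between the lines in the late minus early change was 2.26 ± 0.76, with an unadjusted p of 0.0136 and an adjusted p of 1 in limma. These comparisons share groups and so are not separate evidence. Without both arrays that stood apart, the Col late minus early difference of BBX24 was -2.28 (adjusted p = 0.218) and CCA1-34 minus Col at the late time was 2.45 (adjusted p = 0.132) in limma. Without them CCA1-34 late minus early was 0.03, CCA1-34 minus Col at the early time 0.14 and the interaction 2.31 (adjusted p = 1 for each).

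BBX22, a promoter of light-driven development that works with HY5, was highest in Col early. Its level was 4.95, 5.24 and 5.56 in CCA1-34 late, 4.93, 5.63 and 5.28 in CCA1-34 early, 4.88, 5.16 and 5.23 in Col late, and 6.23, 5.87 and 5.64 in Col early. The Col early arrays lay above the other 9, but narrowly, since the lowest of them was 5.64 and the highest CCA1-34 early array 5.63. This comparison was chosen after its values were seen. Such a separation of Col early, in either direction, held for 1 of the 9 B-box genes and for 0.967% of all probe sets. Col late minus early was -0.82 ± 0.22, a fold of 1.77, with differences of -1.36, -0.71 and -0.41 at ages 5, 6 and 7 days and a limma adjusted p of 0.733. CCA1-34 minus Col was -0.63 ± 0.22 at the early time, with differences of -1.30, -0.24 and -0.36 on the 3 days, and 0.16 ± 0.22 at the late time, with differences of 0.08, 0.08 and 0.34 (adjusted p = 1 for each, limma). Without both arrays that stood apart, Col late minus early was -0.96 (adjusted p = 0.242) and CCA1-34 minus Col at the early time was -0.95 (adjusted p = 1).

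BBX20, which promotes light-driven development and acts in brassinosteroid response, was higher in Col late than in Col early without overlap but narrowly, at low levels. The lowest Col late array was 3.26 and the highest Col early array 3.25. It had 3.15, 3.46 and 2.97 in CCA1-34 late, 3.15, 2.82 and 3.04 in CCA1-34 early, 3.54, 3.44 and 3.26 in Col late, and 3.25, 2.66 and 2.71 in Col early. All 12 values were below the median of their array, so the probe set was not shown to be above background. Col late minus early was 0.54 ± 0.18, a fold of 1.45, with an unadjusted p of 0.0133 and an adjusted p of 0.9 in limma. Without both arrays that stood apart it was 0.45, with an unadjusted p of 0.0509 and an adjusted p of 0.69 in limma.

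BBX21, which activates HY5, had levels of 6.46, 6.43 and 6.95 in CCA1-34 late, 6.82, 6.07 and 6.47 in CCA1-34 early, 6.01, 6.37 and 5.97 in Col late, and 6.48, 6.58 and 5.66 in Col early. The late arrays of the lines did not overlap, those of CCA1-34 being higher, but narrowly, with 6.43 for the lowest CCA1-34 late array and 6.37 for the highest Col late array. CCA1-34 minus Col at the late time was 0.50 ± 0.27 (unadjusted p = 0.0897, adjusted p = 1, limma), and without both arrays that stood apart the unadjusted p was 0.0203 and the adjusted p 0.754. BBX21 was above the array median in all 12 arrays, and its 4 group means ranged only between 6.11 and 6.62. BBX23, the remaining promoter of this set, was between 1.46 and 1.89, below the array median in all 12 arrays, and was not shown to be above background.

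**Figure D2:**
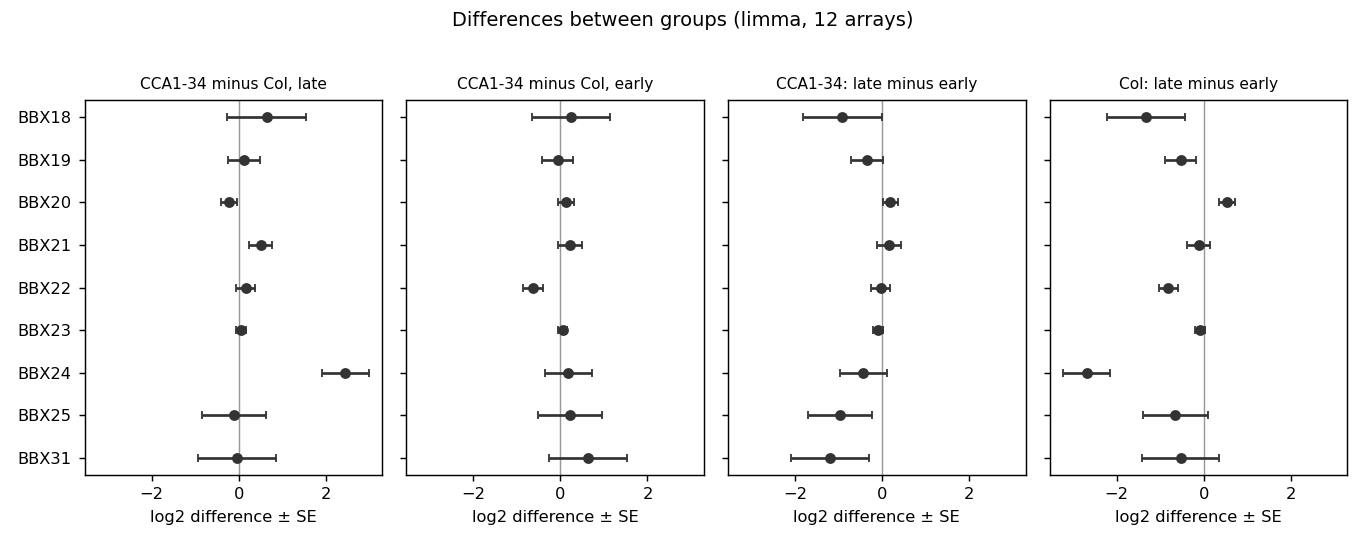
Log2 differences with SE (x axis) of the 9 measured B-box genes (y axis) in 4 comparisons, fitted by limma on 12 arrays. BBX24 lies farthest from 0, at 2.45 for CCA1-34 minus Col late and -2.69 for Col late minus early; the wide bars of BBX18, BBX25 and BBX31 go with the spread among the early arrays.

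Set against the whole array, 0 of the 9 genes passed the adjusted threshold of 0.05 in any of the 8 comparisons in limma. Few of all probe sets did either. The share was 0.00879% for CCA1-34 minus Col late, 0.0044% for the lines at the early time, 0.0044% for Col late minus early, 0.022% for the lines averaged over both times, 0% for each of the remaining group comparisons and 0.787% for age. At an unadjusted p under 0.05, 3 of 9 counted for Col late minus early (BBX20 higher, BBX22 and BBX24 lower) against 5.41% of all probe sets. It was 3 of 9 for late minus early averaged over the lines (the same 3 genes) against 5.16%. The count was 0 of 9 for CCA1-34 late minus early against 1.68%. It was 1 of 9 for the lines at the late time (BBX24) against 3.79%, 1 of 9 at the early time (BBX22) against 3.57%, 1 of 9 averaged over both times (BBX24) against 5.39%, and 2 of 9 for the interaction (BBX22 and BBX24) against 2.04%. Without both arrays that stood apart, 2 of 9 counted for Col late minus early against 7.27%, and 2 of 9 for the lines at the late time against 5.37%. Arrays did not overlap for 3 of 9 genes between the lines at the late time (BBX18, BBX21 and BBX24, higher in CCA1-34) against 10.2% of all probe sets, and for 3 of 9 in Col late against early against 8.91%. For the lines at the early time 1 of 9 (BBX22) did not overlap against 7.76%, and for CCA1-34 late against early 1 of 9 (BBX25, lower late) against 6.96%. The separation of BBX25 was narrow, with 4.51 for the highest CCA1-34 late array and 4.53 for the lowest CCA1-34 early array. BBX18 was below the array median in every late array of both lines.

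The repressor genes BBX18, BBX19 and BBX25 and the microProtein gene BBX31 shared another pattern, being high in the arrays that stood apart. BBX18, which promotes hypocotyl growth, had 4.01, 3.87 and 3.61 in CCA1-34 late, 3.92, 6.92 and 3.41 in CCA1-34 early, 3.40, 3.10 and 3.07 in Col late, and 4.26, 3.03 and 6.23 in Col early. BBX31 had 3.39, 2.99 and 3.06 in CCA1-34 late, 3.20, 6.61 and 3.22 in CCA1-34 early, 3.69, 3.02 and 2.85 in Col late, and 2.78, 2.95 and 5.40 in Col early. For both genes the highest array of each early group was the one that stood apart, and the other 10 arrays lay close together, at 3.03 to 4.26 for BBX18 and 2.78 to 3.69 for BBX31.

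BBX25, the closest relative of BBX24 in this set, had 4.51, 4.49 and 4.50 in CCA1-34 late, 4.53, 7.13 and 4.76 in CCA1-34 early, 5.17, 4.18 and 4.48 in Col late, and 3.88, 5.22 and 6.66 in Col early. BBX19, which binds CONSTANS and works through COP1 in growth control, had 3.81, 3.77 and 3.73 in CCA1-34 late, 3.65, 5.00 and 3.72 in CCA1-34 early, 3.89, 3.64 and 3.44 in Col late, and 3.71, 4.01 and 4.85 in Col early. BBX18, BBX19 and BBX31 were below the array median in 9, 10 and 10 of the 12 arrays, and in those arrays were not shown to be above background. For 5 of the 9 genes, these 4 and BBX24, the 2 arrays were the 2 highest of the 12, against 4.62% of all probe sets. For 0 of the 9 they were the 2 lowest, against 4.13%. Both arrays had been set apart by light-regulated genes in these same data, so these counts are a description only.

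The difference between the early groups and the late ones depended on these 2 arrays for 4 genes. Col late minus early was -1.32 ± 0.90 for BBX18, -0.53 ± 0.36 for BBX19, -0.65 ± 0.74 for BBX25 and -0.53 ± 0.89 for BBX31, and without both arrays it was -0.46, -0.20, 0.06 and 0.32. In CCA1-34 the late minus early difference was -0.91 for BBX18, -0.35 for BBX19, -0.97 for BBX25 and -1.20 for BBX31, and without both arrays 0.17, 0.09, -0.15 and -0.06. None of these passed in limma, with unadjusted p between 0.168 and 0.568, and adjusted p between 0.907 and 1. Over the 10 remaining arrays, r between pairs of these 4 genes ran between -0.50 (BBX18 and BBX25) and 0.63 (BBX19 and BBX25), as a description of arrays that share group and day.

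**Figure D3:**
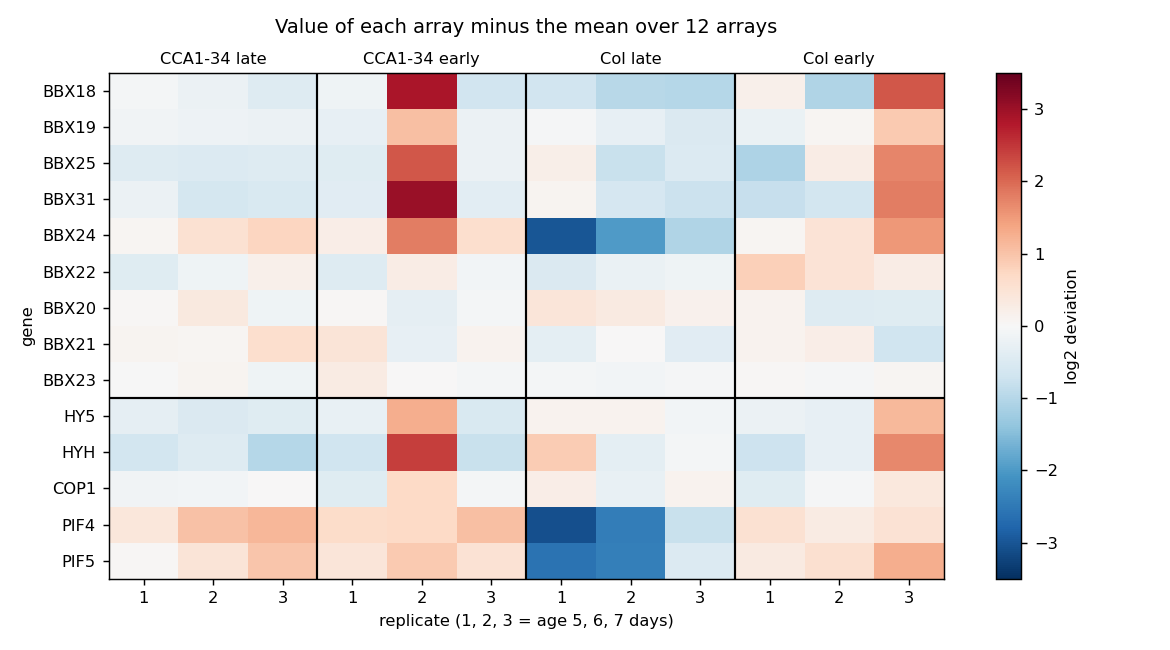
Deviation of each array from the mean over 12 arrays (colour, log2) for the 9 measured B-box genes and 5 light-signalling genes (y axis), arrays in columns by group and replicate (x axis). CCA1-34 early replicate 2 and Col early replicate 3 stand out in BBX18, BBX19, BBX24, BBX25 and BBX31 as well as HY5 and HYH, and the Col late arrays are low in BBX24, PIF4 and PIF5.

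HY5, HYH, COP1 and SPA1 were high in the same 2 arrays, while the listed PIF-type and other light-signalling partners of B-box proteins were not higher on average. HY5 (AT5G11260) had 2.87, 2.69 and 2.78 in CCA1-34 late, 2.93, 4.48 and 2.67 in CCA1-34 early, 3.31, 3.32 and 3.10 in Col late, and 2.98, 2.91 and 4.32 in Col early. HYH (AT3G17609), the homologue of HY5, had 5.02 in CCA1-34 early replicate 2, against 1.89 and 1.82 in the rest of its group, and 4.26 in Col early replicate 3, against 1.88 and 2.31. COP1 (AT2G32950) had 6.57 in CCA1-34 early replicate 2, against 5.45 and 5.80 in the rest of its group, and 6.25 in Col early replicate 3, against 5.44 and 5.83. SPA1, a partner of COP1 in the ligase, has 2 single-locus probe sets, of which only the one with the higher mean was used. It had 8.08 in CCA1-34 early replicate 2, against 5.82 and 5.85, and 8.10 in Col early replicate 3, against 5.70 and 6.53. HY5 and HYH were each below the array median in 10 of the 12 arrays, all but the 2 that stood apart. In those 10 neither gene was shown to exceed background. The 6 measured light-signalling partners had a mean difference of -0.21 from the rest of the group in CCA1-34 early replicate 2, with 2 of 6 higher. In Col early replicate 3 it was -0.22, with 3 of 6 higher. All 7 measured HY5-bound, light-induced genes were above the rest of the group, by 1.26 on average in CCA1-34 early replicate 2 and by 1.65 in Col early replicate 3. This was not particular to these arrays. The same genes were higher by 1.51 in Col late replicate 1 (7 of 7), by 0.96 in CCA1-34 late replicate 1 (7 of 7) and by 0.98 in CCA1-34 early replicate 1 (6 of 7).

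The other lists differed in how far they set these arrays apart. The 8 measured clock genes differed by 0.53 (5 of 8 higher) in CCA1-34 early replicate 2 and by 1.37 (7 of 8 higher) in Col early replicate 3. The first of these was not particular to its array. The clock genes also differed by 0.48 (5 of 8 higher) in Col late replicate 3 and by 0.46 (6 of 8 higher) in CCA1-34 late replicate 3. The 8 markers of darkness and sugar starvation were lower on average by 1.44 (6 of 8 lower) in CCA1-34 early replicate 2 and by 1.13 (6 of 8 lower) in Col early replicate 3. This was not particular to these arrays, since the markers also differed by -1.13 (3 of 8 higher) in Col late replicate 1. In CCA1-34 late replicate 1 they differed by -0.57 (2 of 8 higher). The 11 handling, touch and heat markers differed by -0.07 (5 of 11 higher) in CCA1-34 early replicate 2 and by 1.09 (10 of 11 higher) in Col early replicate 3. The 11 root markers differed by -0.22 and by -0.59 in these arrays, with 2 and 1 of 11 higher, but also by -0.59 in Col late replicate 3, -0.26 in CCA1-34 early replicate 3 and -0.24 in CCA1-34 late replicate 3. The part of what these lists mark in the B-box values was not tested.

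Age, which is the same variable as replicate number, was set against the levels as a slope with the group as a factor. Since all seedlings first had 4 short days, age cannot be told apart from time under the light pulses. BBX24 was higher with each day by 0.55 ± 0.17 on the log2 scale, a fold of 1.46 per day, with an unadjusted p of 0.00873 and an adjusted p of 0.14 in limma, so it did not pass. Over the 4 arrays of each age BBX24 averaged 7.46 ± 1.55 at 5 days, 8.32 ± 1.57 at 6 days and 8.56 ± 1.08 at 7 days (SD, n = 4), each mean holding 1 array of every group. Within CCA1-34 late, Col late and Col early its level was higher on each successive day, and within CCA1-34 early it was highest at 6 days. The 1 of 9 genes under an unadjusted p of 0.05 (BBX24) stands against 16.5% of all probe sets. Without both arrays that stood apart it was 3 of 9 (BBX18, BBX22 and BBX24) against 17.4%, and with centred arrays 2 of 9 against 17.3%. Of the 11 measured root markers, 9 had slopes below 0 with age, 6 of them at an unadjusted p under 0.05. Their median was -0.35 per day, and their part in the slope of BBX24 was not tested. The other B-box slopes were between -0.14 (BBX20) and 0.29 (BBX25) per day, and without both arrays that stood apart that of BBX18 was -0.28, against 0.09 with them (unadjusted p = 0.0265 and 0.826, adjusted p = 0.214 and 0.944, limma). That of BBX22 was then 0.17, against 0.09 with them (adjusted p = 0.26 and 0.7, limma).

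**Figure D4:**
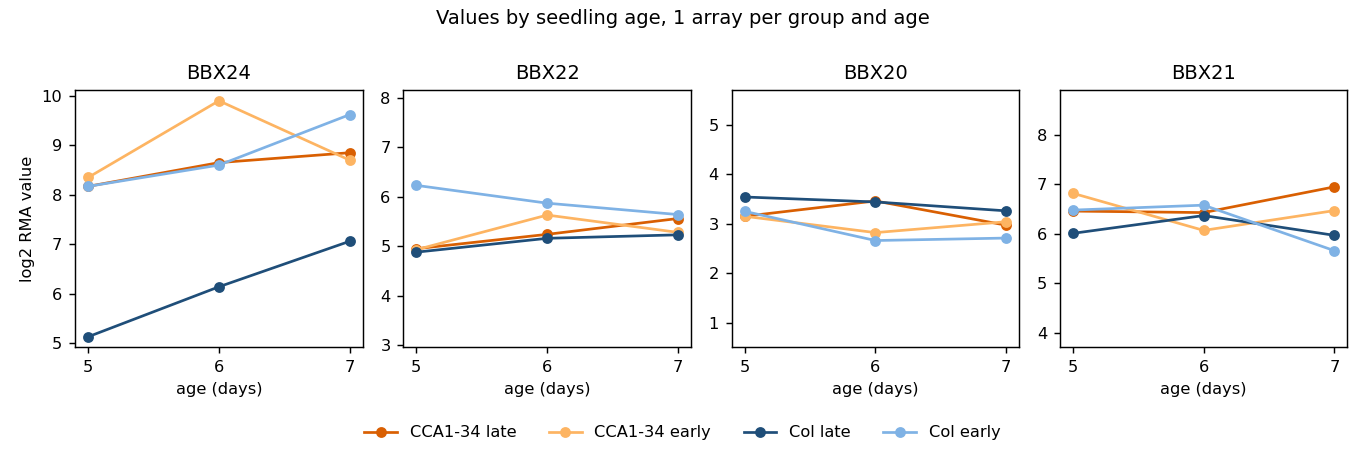
Log2 RMA values (y axis) of BBX24, BBX22, BBX20 and BBX21 by seedling age in days (x axis), 1 array per group and age, lines joining arrays of a group; the panels span the same number of log2 units. BBX24 in Col late lies below the other groups at all 3 ages, and BBX22 in Col early lies above them at all 3.

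Probe sets with patterns most like those of the B-box genes were sought by Pearson r over the 12 arrays for BBX24, BBX18 and BBX31, the 3 with the largest SD. For BBX24 they were AT5G06980 (r = 0.970), CDF3, a DOF-type repressor of CONSTANS transcription (AT3G47500, r = 0.963), and PIF5, also listed as PIL6, a bHLH factor that promotes growth in darkness (AT3G59060, r = 0.961). Over the 9 arrays other than Col late, which include both arrays that stood apart, r was 0.96, 0.93 and 0.85 for these 3. Over the 10 arrays without both, Col late included, it was 0.96, 0.95 and 0.97. For BBX18 they were SMZ, an AP2-type repressor of flowering (AT3G54990, r = 0.969), AT1G05170 (0.960) and AT3G14200 (0.951). Without the 2 arrays that stood apart, r for these was 0.71, 0.75 and 0.62. For BBX31 they were AT2G46420 (r = 0.968), AT4G22100 (0.964) and AT2G27420 (0.964), and without the 2 arrays r was 0.57, 0.46 and 0.62. All of these are descriptions over arrays that share groups, days and normalization.

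PIF4, the other growth-promoting bHLH factor set beside BBX24, had 6.40, 7.02 and 7.15 in CCA1-34 late, 6.64, 6.70 and 7.04 in CCA1-34 early, 2.91, 3.58 and 5.23 in Col late, and 6.52, 6.27 and 6.49 in Col early. PIF5 had 6.64, 7.07 and 7.58 in CCA1-34 late, 7.03, 7.53 and 7.12 in CCA1-34 early, 4.04, 4.22 and 6.13 in Col late, and 6.92, 7.17 and 7.88 in Col early. As for BBX24, the Col late arrays were the lowest of the 12 for both genes and among them the level was lowest at 5 days and highest at 7 days. Over the 9 arrays other than Col late, r between BBX24 and PIF4 was 0.12 and that between BBX24 and PIF5 was 0.85. These 9 include both arrays that stood apart, where BBX24 was 9.90 in CCA1-34 early and 9.62 in Col early, with PIF4 at 6.70 and 6.49. Over the 10 arrays without both, Col late included, r was 0.99 for PIF4 and 0.97 for PIF5. How far the likeness to PIF4 rests on Col late alone is therefore not settled by the 0.12.

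**Figure D5:**
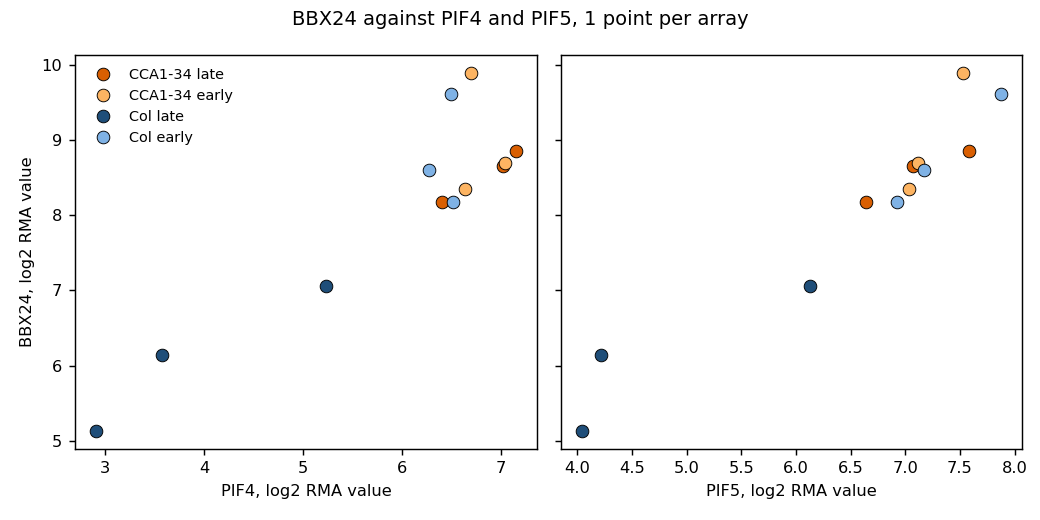
BBX24 (y axis) against PIF4 (left x axis) and PIF5 (right x axis), log2 RMA values, 1 point per array, coloured by group. The 3 Col late arrays lie apart at the lower left, at 5.13, 6.14 and 7.06 for BBX24, and the other 9 form a separate cluster in which r is 0.12 for PIF4 and 0.85 for PIF5. Those 9 include both arrays that stood apart.

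Of 6 measured light-signalling partners of B-box proteins, 5 were above 0 for CCA1-34 minus Col at the late time, with a median of 1.49, against a median of 0.12 over the 9 B-box genes and -0.01 over all probe sets. The largest differences were 2.95 ± 0.46 for PIF4, 2.66 ± 0.55 for HFR1, an atypical bHLH that binds PIF proteins, and 2.30 ± 0.49 for PIF5, with adjusted p of 0.139, 0.363 and 0.383 in limma. Unlike PIF4 and PIF5, HFR1 was also higher in CCA1-34 at the early time, with a mean of 6.60 against 4.79 in Col early. Its Col late mean was 4.51. In Col late minus early, 5 of the 6 were below 0, with PIF5 at -2.53 ± 0.49 and PIF4 at -2.52 ± 0.46 (adjusted p = 0.382 and 0.348, limma). The median of the 6 was -0.58, beside -0.53 over the B-box genes and -0.01 over all probe sets, and without both arrays that stood apart these medians were -0.92, -0.20 and -0.01. PIF4 was below the array median in 2 of the 3 Col late arrays, and PIF5 and HFR1 in 1 each. Among 10 measured photoreceptor and nuclear import genes, the red-light receptor gene PHYB was lower by 0.58 ± 0.12 in Col late than in Col early (adjusted p = 0.42, limma), and the list's median was 0.02. For the 7 measured COP1-SPA and COP/DET genes, the Col late minus early median was 0.06, and for the 7 HY5-bound targets it was -0.24, with none past the threshold. HY5 and HYH differed by -0.16 ± 0.46 and -0.07 ± 0.84 and COP1 by 0.08 ± 0.28 in Col late minus early (adjusted p = 0.984, 0.997 and 0.988, limma).

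The 8 measured clock genes did not go 1 way in the same contrasts. In Col late minus early 5 were above 0 and 3 below, with a median of 0.10. For CCA1-34 minus Col at the late time 3 were above 0 and 5 below, with a median of -0.29. Large differences were those of GI, which acts upstream of CONSTANS, and PRR7, a repressor of CCA1. In Col late minus early GI was -3.00 ± 0.63 and PRR7 -2.17 ± 0.53 (adjusted p = 0.43 and 0.649, limma), and in CCA1-34 minus Col at the late time they were 2.64 ± 0.63 and 2.56 ± 0.53 (adjusted p = 0.536 and 0.363, limma). In Col late, GI was below the array median in 3 of 3 arrays and PRR7 in 2 of 3, so the sizes of these differences are uncertain. Of the 8 measured clock genes, only CCA1 passed in any of the group comparisons, with 5.34 ± 0.55 for the lines averaged over both times (adjusted p = 0.00798, limma). With age, 1 of the 7 COP1-SPA and COP/DET genes passed, DDB1A, a component of the COP10-DET1 complex, at 0.31 ± 0.06 per day (adjusted p = 0.0445, limma). That call was lost in 12 of its 16 alternatives, which include leaving out any 1 array of Col early, CCA1-34 early or CCA1-34 late. Over the 16, adjusted p was 0.0327 to 0.158 and the slope 0.28 to 0.36. Besides DDB1A, 6 of the 7 HY5-bound targets had slopes below 0, with none past the threshold.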

How the data were processed

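Whole-seedling RNA was measured on 12 Affymetrix arrays, 3 in each of 4 groups. The deposited log2 values were made by the authors, with RMA according to both the file headers and the processing notes of the submitters. No source used here gives its version or settings. RMA makes array distributions nearly equal, so a common shift of most transcripts would be damped. Values ran from 1.22 to 12.99, and arrays of a group correlated across probe sets with r of 0.962 to 0.992. The series table and the per-array files differed in 0 cells.

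Groups and replicates came from titles, ages from descriptions. The arrays hold 22810 probe sets, and leaving out 64 controls left 22746. The files pair 21361 of the rest with 1 locus, 885 with several and 500 with none. Symbols came from a RefSeq table of TAIR10.1, in which 21048 single-locus probe sets had their locus. No coordinates and no sequences are given, since the files name no genome build and none of the tables used here holds sequence.

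Differences were fitted with limma 3.58.1 in R 4.3.3 on all 12 arrays with 4 group means (eBayes without trend, two-sided), 8 residual degrees of freedom, Benjamini-Hochberg over 22746 probe sets and a threshold of 0.05; the age slope had 7. The script was tested on simulated data. The alternatives were the replicate block, an intensity trend, dim probe sets left out, arrays centred on their medians, the arrays that stand apart left out, each array left out, and age as a factor. The B-box genes and all gene lists were chosen with earlier results of these data known. Named were all B-box genes, CCA1, HY5, HYH and COP1, list members past the threshold, up to 3 per list with the largest differences, and the probe sets most like the 3 B-box genes of largest SD. Values of SPA1 in the arrays that stand apart, and the comparisons of Col late and of Col early with all other arrays, were chosen after values were seen.

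The labels say that a replicate number marks a day of sampling. Deviations from the group means correlated with r between -0.317 and 0.505 (median 0.183) over 18 same-day pairs of arrays of different groups, and between -0.521 and 0.486 (median -0.074) over 36 other pairs.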

Additional observations from a re-analysis of the deposited data

Results flagged for a closer look

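BBX22 was singled out because the lines differed in opposite directions at the 2 times on each of 3 days. CCA1-34 minus Col averaged 0.16 at the late time, with all 3 days above 0, and -0.63 at the early time, with all 3 days below 0. The difference between these was tested as the interaction in limma and was 0.80 ± 0.31, with an unadjusted p of 0.0267 and an adjusted p of 1, so it did not pass. The cause was not tested.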

How the results depend on the processing

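For the B-box genes, 0 passed an adjusted p of 0.05 under any alternative. The 201 recomputed values of their differences with a main unadjusted p under 0.05 kept their direction, but many of these could not reverse. The replicate block, the intensity trend and leaving out dim probe sets do not change the size of a difference. Nor does leaving out an array of a group that the comparison does not use. BBX24 stayed under an unadjusted p of 0.05 in all 17 alternatives of Col late minus early, with adjusted p of 0.158 to 0.965, and in all 17 of CCA1-34 minus Col late, with adjusted p of 0.132 to 1. Leaving out 1 array at a time gave -3.16 to -2.20 and 1.96 to 2.92 for these, and 0.45 to 0.74 per day for its age slope (adjusted p of 0.0714 to 0.306 over all alternatives). Counts of all probe sets past the threshold moved more. With the replicate block, which pairs arrays by day, the count for the lines averaged over both times was 16 instead of 5 and for the lines at the late time 6 instead of 2, and the block changed no other call: all calls made without it (5, 2, 1 for the lines at the early time and 1 for Col late minus early) were shared. The age slope has no such fit, since age and replicate number are the same variable. For the lines at the late time, 6 passed with an intensity trend, 6 with dim probe sets left out, and 30 without both arrays that stood apart. For the lines at the early time, 2 passed instead of 1 with the trend, with dim probe sets left out and with centred arrays. Without both arrays that stood apart, Col late minus early gave 13 instead of 1 and the interaction 1 instead of 0. For age, 107 passed instead of 179 with the trend and 102 for 7 days minus 5 days. Leaving out each array in turn gave 1 to 12 for the lines at the late time, 1 to 3 at the early time, 0 to 1 for late minus early averaged over the lines, 0 to 1 in CCA1-34, 0 to 3 in Col, and 0 to 427 for age. The highest count for the late lines came without Col early replicate 3, and for age the count was 0 without Col early replicate 1, at most 7 without CCA1-34 early replicate 1 or 3 or any CCA1-34 late replicate, 85 without Col early replicate 3 and 427 without Col late replicate 2. The cause was not tested. Dim signal limits BBX20 and BBX23 in all arrays and BBX18, BBX19 and BBX31 in most.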
